A study of Homo sapiens with 6 samples.

Results

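Polycomb repressive complex 2 (PRC2) was examined at the mRNA level through 10 genes: the catalytic subunits *EZH2* and *EZH1*, the core subunits *EED*, *SUZ12*, *RBBP4* and *RBBP7*, and the accessory subunits *JARID2*, *PHF1*, *MTF2* and *PHF19*. Members were all probe sets of the array that the platform annotation gave to exactly 1 of these symbols. They came to 35 of 45278 probe sets with 1 symbol, between 1 (*RBBP7*) and 9 (*MTF2*) a gene. The cells were SH-SY5Y, an established human neuroblastoma line used as a model of neurons. Both groups received 15 pM of a synthetic anti-miR with a lipid transfection reagent 24 hours after seeding, and total RNA was taken 72 hours later. In 3 samples the anti-miR was directed against miR-137, and in the 3 others it was Anti-miR Negative Control #1. The samples of each group were numbered 1 to 3. The study asked which mRNAs change when miR-137 is inhibited and might be targets of it.

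PRC2 places methyl groups on H3K27, the mark that keeps developmental genes silent, and PRC1 acts beside it by ubiquitinating histone H2A. *EZH2* carries the methyltransferase activity and is the form of dividing cells, while *EZH1* is its less active relative in resting and differentiated cells. *EED* reads the mark and stimulates the enzyme, *SUZ12* is the scaffold, and *RBBP4* and *RBBP7* are histone chaperones shared with other chromatin complexes. *PHF1*, *MTF2* and *PHF19* are the Polycomb-like subunits that bring the complex to CpG islands, and *JARID2* marks the alternative form of PRC2. A microRNA pairs through its seed with sites in mRNAs and lowers their level or translation. *EZH2* mRNA has been reported as a target of miR-137, and in neuroblastoma *EZH2* is known for silencing differentiation genes.

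The inhibitor was directed at miR-137, whose mature form is shown because its seed defines the sites it can bind. The sequence is that of RefSeq (GRCh38.p14, chr1:98046091-98046113, minus strand), with bases 2 to 8, the seed, in capitals.
hsa-miR-137-3p: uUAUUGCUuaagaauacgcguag

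The arrays gave 1 log2 value per probe set, after RMA, which corrects background and makes the distributions of the arrays alike. Array medians lay between 6.39 and 6.43 and RNA integrity numbers between 9.5 and 9.8. The labels did not say whether samples came from separate cultures, so p-values measure the spread between these samples, which may be technical, and with 3 arrays a group precision was low. Of the 12 sympathetic neuroblastoma markers 11 had a probe set, and all 11 were above the filter on dim probe sets (a mean log2 value of 5.69). Above the same limit were 0 of 3 leukocyte, 1 of 4 epithelial, 3 of 4 glial and 6 of 8 mesenchymal markers with a probe set. Values are from bulk RNA, in which fewer cells of a type and less RNA per cell cannot be told apart. A signal on these arrays does not rank different genes, so every comparison is within a probe set.

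No PRC2 mRNA was called different between cells given the miR-137 inhibitor and control cells. Mature miR-137 was not among the values used here, so how far it was inhibited cannot be told from them. In limma, 0 of 10 members had an adjusted p under 0.05, against 0% of all 12639 genes tested. With the inhibitor 5 of the 10 had the higher mean and 5 the lower, where 52% of all genes had the higher mean. The differences ran from -0.089 to 0.20 on the log2 scale with a median of 0.0023, beside a median of 0.0033 over all genes. At an unadjusted p under 0.05 stood 1 of the 10, *PHF1*, against 2.65% of all genes. It was higher with the inhibitor, as were 1.65% of all genes at that p, and 0 members were lower, against 0.997%. Every member had at least 1 probe set above the filter, and each gene is given below by its brightest one.

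For *EZH2*, the catalytic subunit and reported target, the log2 signal was 9.77, 9.73 and 9.94 in the anti-miR-137 arrays numbered 1, 2 and 3 and 9.71, 9.80 and 10.20 in the control arrays. The groups overlapped, and the control array numbered 3 was the highest of the 6. The means were 9.81 ± 0.11 (SD, n = 3) and 9.90 ± 0.26 (SD, n = 3), a difference of -0.089 with a standard error of 0.13. In fold terms the anti-miR-137 level was 0.940 of control, with a 95% confidence interval from 0.758 to 1.17. Within the numbers the anti-miR-137 array stood 0.055 above its control in number 1, and differed by -0.064 in number 2 and by -0.26 in number 3. Without the control array numbered 3 the difference was 0.061, so its direction rested on that array.

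*EZH1* measured 8.06, 8.04 and 7.89 in anti-miR-137 cells and 8.04, 7.96 and 7.80 in control cells. The arrays of the 2 groups lay among each other, with the lowest value of each group in number 3. Within every number the anti-miR-137 array was the higher one, by at most 0.087. The difference was 0.064 (95% confidence interval -0.13 to 0.26), and it was -0.0025 without the control array numbered 3.

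No core subunit differed beyond the spread of its arrays. *EED* measured 10.30, 10.33 and 10.41 against 10.22, 10.39 and 10.37, a difference of 0.021 (-0.14 to 0.18). *SUZ12* measured 10.66, 10.67 and 10.80 against 10.69, 10.77 and 10.82, and its difference was -0.052 (-0.21 to 0.11). Within every number *SUZ12* was lower with the miR-137 inhibitor, by at most 0.10, and so was *RBBP7*, by at most 0.16. Of the 10 members 3 were higher and 2 lower within all 3 numbers, and the share over all genes was not counted. *RBBP4* measured 11.56, 11.62 and 11.61 against 11.63, 11.58 and 11.77 and differed by -0.065 (-0.23 to 0.098), and *RBBP7*, with 10.33, 10.43 and 10.56 against 10.49, 10.44 and 10.60, by -0.069 (-0.26 to 0.12). All 4 intervals held 0.

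Among the accessory subunits, *PHF1* had the largest difference of the 10 members. Its log2 signal was 7.18, 7.22 and 7.43 in anti-miR-137 cells and 7.16, 7.08 and 7.002 in control cells. Every anti-miR-137 array lay above every control array, with a gap of 0.43 in number 3 and of 0.026 in number 1. *PHF1* was the 1 member gene whose groups did not overlap, and 7.36% of all genes had groups that did not overlap. The means of 7.28 ± 0.13 and 7.08 ± 0.078 (SD, n = 3 each) gave a difference of 0.20 with a standard error of 0.084, or 1.15-fold. The 95% confidence interval, 0.00069 to 0.39, just left out 0, while the intervals of the other 9 members held it. The unadjusted p was 0.049, and the adjusted p in limma was 1.00. Without the anti-miR-137 array numbered 3 the difference was 0.12.

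*PHF19* varied most among the members. It measured 9.17, 9.53 and 9.88 in anti-miR-137 cells and 9.06, 9.41 and 9.61 in control cells, a difference of 0.16 (-0.30 to 0.63). The anti-miR-137 array was the higher one in each number, while the groups overlapped widely. Without the anti-miR-137 array numbered 3 the *PHF19* difference was -0.011, and with the RNA integrity number as a covariate it was 0.39. *JARID2* measured 8.88, 8.74 and 9.03 against 8.60, 8.88 and 8.91 and differed by 0.086 (-0.17 to 0.34), and by -0.015 without the control array numbered 1. *MTF2* measured 10.76, 10.82 and 10.82 against 10.69, 10.93 and 10.84, a difference of -0.017 (-0.19 to 0.16). For *EED* and *MTF2*, whose differences were near 0, the sign also turned when single arrays were left out.

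**Figure D1:**
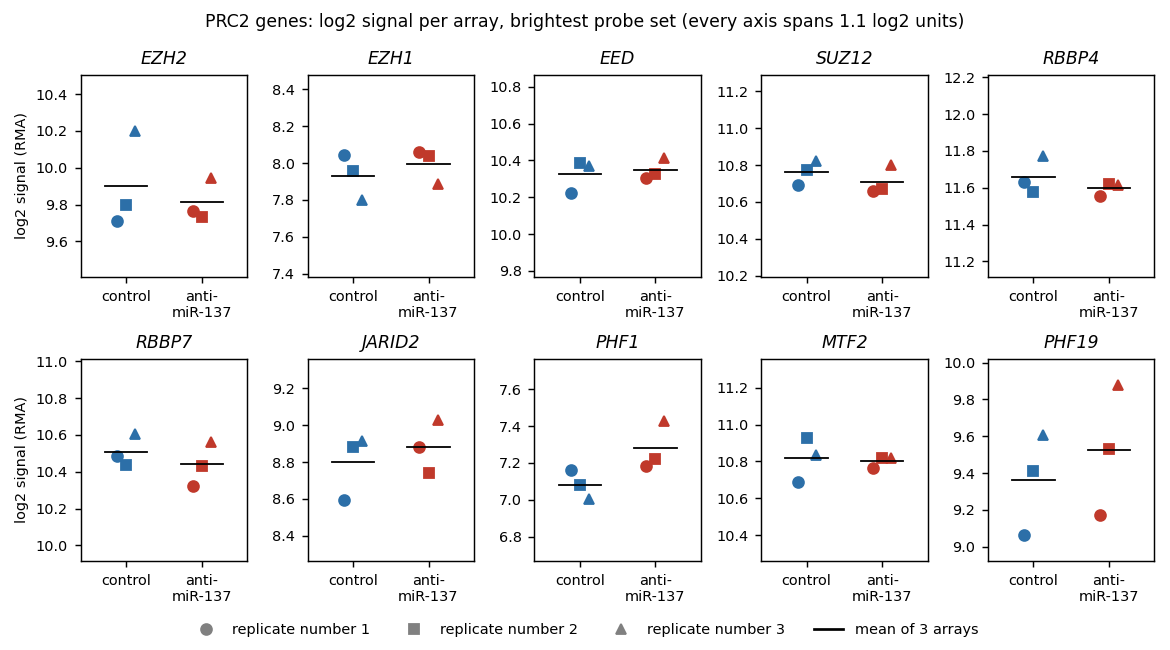
Log2 signal of the brightest probe set of each PRC2 gene in the 6 arrays, by treatment (blue control, red anti-miR-137); the marker shape gives the replicate number and the line the mean of 3 arrays. *PHF1* is the gene without overlap between groups. In *EZH2*, *SUZ12*, *RBBP7*, *JARID2* and *PHF19* the highest array of each group is the one numbered 3.

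The half-widths of the 95% intervals of the 10 members ran from 0.16 (*SUZ12*) to 0.46 (*PHF19*), with a median of 0.194, beside 0.189 over all genes. For 9 of the 10 the interval lay within 0.5 log2 units of 0. *PHF19* was the exception, with an upper bound of 0.63.

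Probe sets of the same gene did not agree on a direction for most members. On its own each of the 35 was tested among 49393 probe sets without a filter, and 0 of the 35 were called in limma, against 0% of all probe sets. By direction, 15 of the 35 were above control and 20 below, and 28 of the 35 were above the filter. At an unadjusted p under 0.05 stood 1 of them, against 3.48% of all probe sets. The groups did not overlap for 5 of the 35, against 8.09% of all probe sets. Probe sets of 1 gene share transcripts, so these counts are not of independent measurements.

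The probe set with the smallest p belonged to *JARID2*. Probe set 11744929_a_at measured 5.70, 5.72 and 5.40 in anti-miR-137 cells and 5.96, 5.98 and 5.98 in control cells. All its anti-miR-137 arrays were below all controls, with a difference of -0.37 (95% confidence interval -0.59 to -0.14) and an unadjusted p of 0.0052. It was dim, with a mean of 5.79 close to the filter. The 3 brighter *JARID2* probe sets gave 0.086, 0.011 and 0.023, and the other dim one -0.083. So the lower values of *JARID2* were found on its 2 dimmest probe sets of 5, and its 3 brightest had small differences the other way.

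*EZH2* had a second probe set above the filter, 11748690_a_at, which measured 6.56, 6.80 and 7.39 in anti-miR-137 cells and 6.80, 6.75 and 7.13 in control cells. Its difference was 0.024 (-0.44 to 0.49), opposite in sign to that of the brightest probe set. The third *EZH2* probe set, below the filter at a mean of 4.64, gave -0.069. *EZH1* was represented above the filter by 1 of its 3 probe sets. Its dimmest, 11717323_a_at at a mean of 4.16, had anti-miR-137 values of 4.13, 3.99 and 4.12, all below the controls at 4.23, 4.29 and 4.19.

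All 3 *SUZ12* probe sets were on the side below control, with differences of -0.052, -0.11 and -0.16, and each interval held 0. For *EED*, 3 of 4 probe sets were lower, between -0.039 and -0.11, while the brightest was at 0.021. The 2 *RBBP4* probe sets went opposite ways, at -0.065 and 0.073. *MTF2* had 6 of 9 probe sets lower and 3 higher, from -0.14 to 0.054. Its probe sets 11747742_a_at and 11726606_at had all anti-miR-137 arrays below all control arrays. *PHF19* ranged from -0.040 to 0.16 over its 3 probe sets, and the dim second probe set of *PHF1* gave 0.052.

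**Figure D2:**
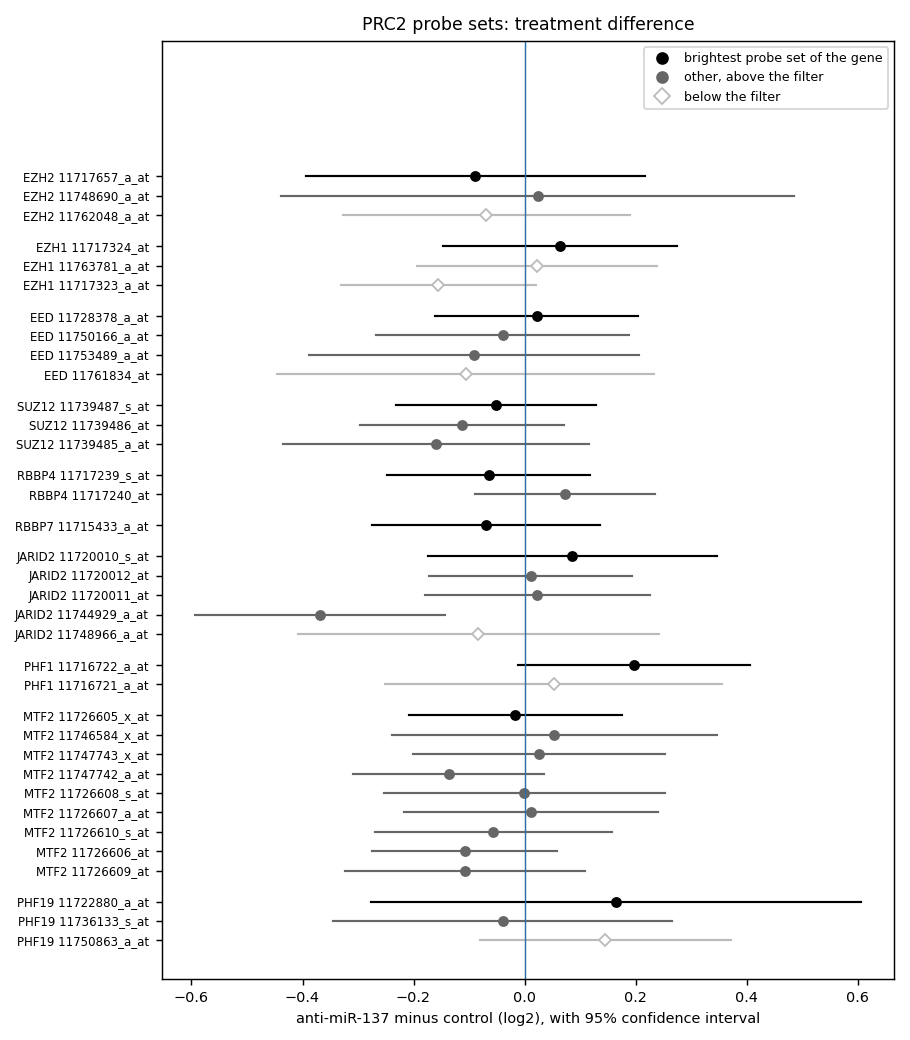
Difference between anti-miR-137 and control (log2, x axis) with its 95% confidence interval for each of the 35 probe sets, grouped by gene and ordered by brightness, from the fit on all probe sets. Only the interval of *JARID2* 11744929_a_at leaves out 0 in this fit (34 of 35 hold it), and that of *PHF1* 11716722_a_at runs from -0.012 to 0.41. Open grey diamonds are the 7 probe sets below the filter.

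Other genes of the Polycomb system showed no call either, from lists written from general knowledge with earlier results of these data known. Of 5 further PRC2 accessory genes 4 were tested: *AEBP2*, the partner of *JARID2* (-0.075), *EPOP* (0.012), *LCOR*, whose locus encodes a PRC2 accessory protein (0.025), and its relative *LCORL* (-0.033). In the PRC1 list 10 of 22 genes lay above control and 12 below, with a median of -0.0068 and 0 called. *BCORL1* (-0.11) and the polyhomeotic subunit *PHC2* (0.083) had its smallest p. The H3K27 demethylases *KDM6A* (0.021) and *KDM6B* (-0.026) differed little. The list around the deubiquitinase BAP1, which removes the PRC1 mark, had 4 higher and 5 lower values, led by *ASXL1* (0.081) and *HCFC1* (-0.050).

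In the trithorax and SWI/SNF list, whose members oppose Polycomb silencing, 10 genes lay above and 9 below control, and the median was 0.0016. *ARID1B* (-0.24) and *SMARCB1* (0.21), both SWI/SNF subunits, had the smallest p there, and neither passed. Genes reported as repressed by EZH2 were 3 higher and 4 lower among 7 tested, with a median of -0.0037. *CASZ1*, a neuroblastoma tumour suppressor, averaged 7.70 ± 0.064 with the inhibitor and 7.52 ± 0.064 without it (SD, n = 3 each), which is a difference of 0.18 with an adjusted p of 1.00 in limma. *NGFR*, the low-affinity neurotrophin receptor, differed by 0.24 at a dim mean of 6.34 against 6.09.

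*PHF19* was the 1 member called different between replicate numbers. Each number held 1 array of each group, the labels did not say what a number stood for, and the test was an F test over the 3 numbers with treatment as a second term. In limma, 1 of the 10 passed, with an adjusted p of 0.036, against 2.53% of all 12639 genes. With dim genes kept in the test the *PHF19* adjusted p was 0.11 and the call was lost, and 2 genes in place of 320 passed. At an unadjusted p under 0.05 stood 3 of 10 (*PHF19*, *EZH2* and *EZH1*), against 23.5% of all genes. For the contrast of number 3 with number 1, 1 of 10 was called higher, against 4.39% of all genes, and 0 lower, against 3.84% (8.23% in either direction). At an unadjusted p under 0.05 3 of 10 were higher, against 14.1%, and 1 lower, against 14.2%. No member was called in the contrast of 2 with 1 or of 3 with 2, against 0.0316% and 0.00791% of all genes.

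*PHF19*, a Polycomb-like subunit that binds methylated H3K36, averaged 9.12 in the 2 arrays numbered 1, 9.47 in those numbered 2 and 9.74 in those numbered 3. The 2 arrays of a number lay within 0.11, 0.12 and 0.27 of each other, and numbers 1 and 3 did not overlap. Number 3 was higher than number 1 by 0.63 with a standard error of 0.070, or 1.54-fold (95% confidence interval 1.37 to 1.74), with an adjusted p of 0.016 in limma. With any 1 array of number 1 or 3 left out, the difference stayed between 0.55 and 0.71 but was not called. Such a fit leaves 1 array in that number, so the lost call cannot be told apart from lower precision. *PHF19* probe set 11736133_s_at measured 7.68, 7.94 and 8.06 in the anti-miR-137 arrays numbered 1 to 3 and 7.77, 7.87 and 8.16 in the control arrays, 0.39 higher in number 3 than in number 1. Tested among all 49393 probe sets the 2 brighter *PHF19* probe sets had adjusted p of 0.17 and 0.25 in the F test, and the number called was 0 of 35, against 0% of all probe sets. For number 3 against 1 it was 0 of 35 as well, against 0.00607%. At an unadjusted p under 0.05 in the F test stood 7 of 35, against 14% of all probe sets.

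*EZH2* averaged 9.74 in number 1, 9.76 in number 2 and 10.07 in number 3. Both arrays numbered 3 lay above the 4 others, as they did for *SUZ12*, *RBBP7*, *JARID2* and *PHF19*. The share of all genes with that order was not counted. For *EZH2* number 3 was above number 1 by 0.34 with a standard error of 0.088 (1.26-fold, 1.09 to 1.47). The adjusted p of 0.075 in limma did not pass. With the kept probe sets of each gene averaged it was 0.46 with an adjusted p of 0.016. At the unaveraged difference *EZH2* also passed with the filter at the 60th percentile (0.032) and with a variance trend in limma (0.0066). More of all genes passed the F test there too, 1099 and 1797 in place of 320. The share of all genes called in this contrast was not counted at these settings. On the second *EZH2* probe set both arrays numbered 3, at 7.39 and 7.13, were also above the 4 others, by 0.58 over number 1.

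*EZH1* was the 1 member lower in number 3 than in number 1. It averaged 8.05, 7.997 and 7.84 in numbers 1, 2 and 3, a difference of -0.21 (95% confidence interval -0.36 to -0.060) with an adjusted p of 0.093 in limma, or 0.046 with the filter at the 60th percentile. Both its arrays numbered 3 were below the 4 others, the reverse of *EZH2*, and the share of all genes with that order was not counted. The looser order, both arrays numbered 3 below both numbered 1, held for 31.9% of all genes. The 2 dim *EZH1* probe sets gave 0.072 and -0.024 for the same contrast.

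The other members had higher values in number 3 than in number 1 without passing. The differences were 0.13 for *EED*, 0.14 for *SUZ12*, 0.099 for *RBBP4*, 0.18 for *RBBP7*, 0.23 for *JARID2*, 0.044 for *PHF1* and 0.10 for *MTF2*, with adjusted p between 0.16 and 0.81 in limma. With a variance trend, where 1797 of all genes passed the F test in place of 320, *RBBP7* passed (adjusted p of 0.044 in limma). In all, 9 of 10 members were higher in number 3, where 47% of all genes were. Both arrays numbered 3 were above both numbered 1 for 7 of 10, against 28.9% of all genes. Of the member probe sets above the filter 24 of 28 had higher values in number 3, against 51.9% of all such probe sets. Below the filter it was 2 of 7, against 39.5%. Probe sets of 1 gene are not independent measurements, and *MTF2* alone gave 8 of the 24. *MTF2* 11746584_x_at had low values in both arrays numbered 1 (10.33 and 10.30) against 10.70, 10.62, 10.68 and 10.50 in the others, so there number 1 stood apart and not number 3. *EED* 11753489_a_at was higher by 0.39 in number 3, with 8.47 and 8.58 against 8.10 and 8.17 in number 1, while the dim *EED* 11761834_at gave -0.38.

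**Figure D3:**
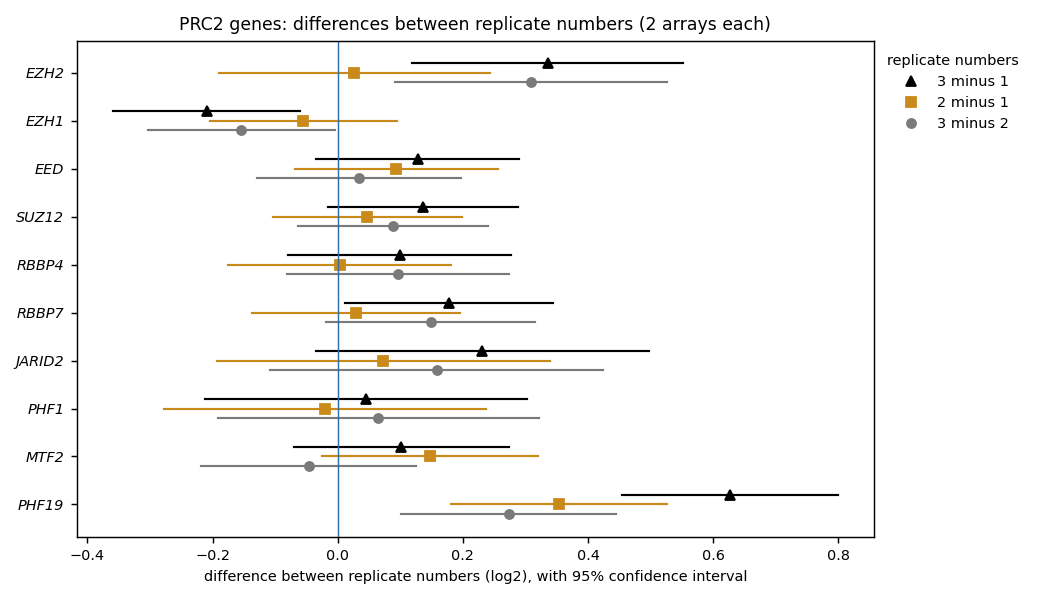
Differences between replicate numbers (log2, x axis, 95% confidence intervals) for each PRC2 gene, with treatment as a second term and 2 arrays in each number. *PHF19* is 0.63 higher in number 3 than in number 1, *EZH2* 0.34 higher, and *EZH1* is the 1 gene below 0 in that contrast.

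Proliferation genes moved with the same numbers. Of 21 listed 20 were tested, all 20 had higher values in number 3 than in number 1, and 16 of them were called, against 4.39% of all genes. Their median difference was 0.43, beside 0.13 over the 10 PRC2 genes and -0.012 over all genes. The mean deviation of the proliferation list from its 6-array mean was -0.19, -0.026 and 0.26 in the anti-miR-137 arrays numbered 1, 2 and 3 and -0.24, -0.038 and 0.23 in the control arrays. For the 10 PRC2 genes it was -0.060, -0.014 and 0.11, and -0.098, -0.0041 and 0.066. *RRM2*, a subunit of ribonucleotide reductase, was higher in number 3 by 0.78, and the replicative helicase subunit *MCM2* by 0.63, both with an adjusted p of 0.015 in limma. The part of proliferation in the values of *PHF19* and *EZH2* was not tested. Treatment groups differed little on this list, with a median of 0.064 and 0 called; *TOP2A* (-0.15) and *MCM3* (0.14) led it.

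Of 16 E2F and RB genes, which control entry into S phase and *EZH2* transcription, 4 were higher in number 3 than in number 1 past the threshold, against 4.39% of all genes, and 0 lower, against 3.84%, with a median of 0.15. *E2F8*, a repressive E2F of late cell cycle, was higher by 0.52 (adjusted p of 0.025 in limma) and *LIN9*, a subunit of the MuvB complex, by 0.41 (0.045). By treatment *RBL2* (-0.16) and *LIN54* (-0.081) had the smallest p of this list. Within PRC1, 3 of 22 genes were called, where 8.23% of all genes were called in either direction, so the count is near the background. They were *PHC3*, 0.41 lower in number 3 (adjusted p of 0.023 in limma), and close to the threshold the RYBP relative *YAF2* (0.33, adjusted p of 0.042) and *PCGF6* (0.32, adjusted p of 0.049), both higher. Among genes reported as repressed by EZH2, 1 of 7 was called, and it was lower, as were 3.84% of all genes. It was the cell cycle inhibitor locus *CDKN2A*, which averaged 8.81 in number 1 and 8.43 in number 3 (adjusted p of 0.032 in limma). *NGFR* had a difference of -0.23 and was not called. The 4 further PRC2 accessory genes lay between -0.013 and 0.17 and 0 were called. In the BAP1 list 0 of 9 were called, with *MBD6* at -0.23 and *ASXL3* at 0.14. In the trithorax and SWI/SNF list 0 of 19 were called, with *SMARCA2* at 0.063 and *PBRM1* at 0.23.

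**Figure D4:**
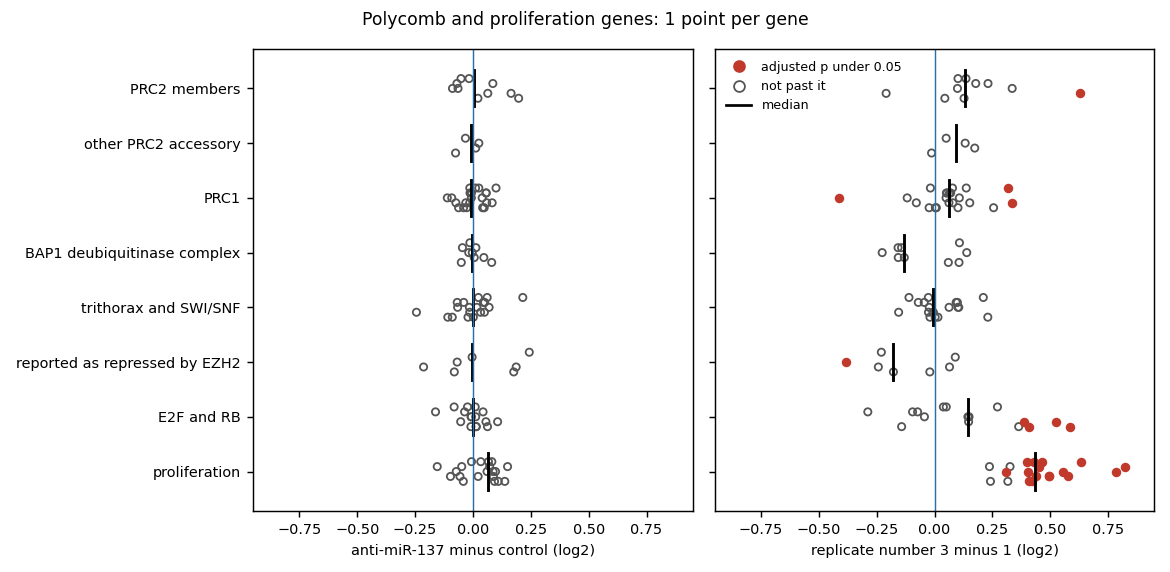
Log2 differences of single genes by list, for treatment (left) and for replicate number 3 against 1 (right); filled red points passed an adjusted p under 0.05 and the bar is the list's median. No gene passed by treatment, while 16 of 20 proliferation genes, 4 of 16 E2F and RB genes and 1 of 10 PRC2 genes were called higher on the right.

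Genes most like *EZH2* over the 6 arrays were sought among 6319 genes that varied at least as much as the median gene. The 5 with the highest Pearson correlation were *LMBRD2* (0.991), *NEK4* (0.989), *RAD51AP1* (0.988), *FAIM* (0.984) and *PIGW* (0.981). All 5 had both arrays numbered 3 above the 4 others and the highest value in the control array of number 3, as *EZH2* had. They were chosen by correlation over the same 6 arrays, so this shared pattern is not a separate result. Within PRC2 the likeness to *EZH2* was 0.83 for *SUZ12*, 0.82 for *RBBP4*, 0.77 for *RBBP7* and 0.60 for *PHF19*. It was 0.59 for *JARID2*, 0.56 for *EED*, 0.32 for *MTF2*, -0.26 for *PHF1* and -0.95 for *EZH1*. These coefficients describe 6 arrays in 3 numbers and carry no test.

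Promoter stretches are shown for 3 members that had higher values in number 3 and held an E2F word, since E2F factors are known to regulate *EZH2*. *MTF2* met both conditions as well, and its stretch is not printed. A stretch was also sought for *RBBP7*, which had no word. RefSeq windows (GRCh38.p14) held 250 bases before and 50 after a start site, and all 10 members matched, with 15 windows. An E2F word was any of TTTCCCGC, TTTCGCGC, TTTGCCGC and TTTGGCGC on either strand. Such a word was in 5 of 15 member windows, of *EZH2*, *EZH1*, *SUZ12*, *MTF2* and *PHF19*, and in 3.31% of 35116 windows of all genes. *EZH1*, with lower values in number 3, is among the genes with a word. *EED*, *RBBP4*, *RBBP7*, *JARID2* and *PHF1*, with higher values in number 3, had none. *EZH2* and *PHF19* each also had a window without a word. Whether words go with the differences between numbers was not tested. The E2F word is in capitals in each stretch below, which is written along the gene's strand. They lie at chr9:120877322-120877351 (minus strand) for *PHF19*, chr7:148884272-148884301 (minus) for *EZH2* and chr17:31936807-31936836 (plus) for *SUZ12*.
PHF19: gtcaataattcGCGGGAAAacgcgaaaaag
EZH2: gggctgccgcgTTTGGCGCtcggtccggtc
SUZ12: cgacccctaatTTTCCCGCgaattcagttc

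The *EZH2* window also held the CCAAT word 4 times, counting both strands, which 0.991% of all windows did at least as often; 34.6% held it at all, as did 10 of the 15 member windows. The word marks binding sites of NF-Y, a factor common at cell cycle promoters. The stretch upstream of the *EZH2* start, chr7:148884292-148884390 (minus strand), is printed with these words in capitals, and they do not overlap the E2F word.
EZH2 upstream: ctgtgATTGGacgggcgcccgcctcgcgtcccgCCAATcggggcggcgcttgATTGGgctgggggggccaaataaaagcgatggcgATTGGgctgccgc
The CHR word TTTGAA was in 1 of the 15 windows, that of *SUZ12*, against 15.2% of all windows. A word match is a description of the sequence and was not tied to binding here.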

How the data were processed

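Biotin-labelled total RNA (100 ng) of 6 samples was measured on 1-colour arrays. The authors deposited log2 signals, 1 per probe set and array, made with RMA in R 3.0.1 per the submitters' processing notes; the annotation they used is not given in the sources used here. The file held 49495 probe sets, 102 of them controls; 45278 had 1 symbol in the platform annotation used here, 1333 several and 2782 none. Symbols were checked against RefSeq (GRCh38.p14), which changed 0. No pair of arrays was identical.

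Probe sets with a mean at or above the 40th percentile were kept (27514), each gene by its brightest, leaving 12639 genes. The treatment test was a linear model in limma 3.58.1 (R 4.3.3; lmFit, then eBayes; two-sided, Benjamini-Hochberg over all genes, threshold 0.05), with group as the only term. Replicate numbers were tested with group as a second term, and every probe set was also tested without a filter. The fits were tested on simulated data, in which the treatment runs held no differences between replicate numbers. These runs therefore do not show how the treatment test performs where numbers differ. Members and lists were chosen with earlier results of these data known. Named genes were all members, the 5 genes most like *EZH2*, the 2 of smallest p per list and test, and every tested gene of lists with under 5; *PCGF6* was named after its value was seen. Marker lists were used for identity only. Alternatives were filters, averaged probe sets, cross-hybridising probe sets left out, normalization, variance prior, array weights, covariates and left-out arrays.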

Additional observations from a re-analysis of the deposited data

How the results depend on the processing

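The count of 0 members and 0 of all genes called by treatment in limma was the same under all 10 other settings and with each array left out (0 to 0), and 0 of 35 probe sets were called on their own under all 5 settings tried there and with each array left out (0 to 0). For the 10 member differences, the sign turned when kept probe sets were averaged (*EED* -0.036, *RBBP4* 0.0041, *JARID2* -0.062), with _s_at and _x_at probe sets, which can cross-hybridise, left out (*RBBP4* 0.073), with array weights (*EED* -0.022, *JARID2* -0.020) and with the RNA integrity number as a covariate (*MTF2* 0.038). With an array left out the ranges were -0.18 to 0.061 for *EZH2*, -0.0025 to 0.12 for *EZH1*, -0.031 to 0.052 for *EED*, -0.015 to 0.16 for *JARID2*, -0.081 to 0.038 for *MTF2*, -0.011 to 0.34 for *PHF19*, 0.12 to 0.24 for *PHF1*, -0.11 to -0.0085 for *RBBP4*, -0.13 to -0.012 for *RBBP7* and -0.096 to -0.021 for *SUZ12*. The values nearest 0 came without the control array numbered 3 for *RBBP4* and *SUZ12*, and without the anti-miR-137 array numbered 1 for *RBBP7*. *PHF1* dropped out at the stricter filter.

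The labels did not say that a number marks a shared culture, so the numbers were not taken as pairs in the main treatment test. Deviations of same-numbered arrays had correlations of 0.55 in number 1 and 0.65 in number 3, and a lower one in number 2 (0.073). The spread between numbers therefore stayed in the standard errors and intervals of the treatment differences. With the replicate block 0 members and 0 genes passed, and 815 genes had an unadjusted p under 0.05 in place of 335; *PHF19* had the smallest member p there (0.029, adjusted p of 0.75 in limma).

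The F test over replicate numbers called 1 member and 320 genes. It called 0 members and 2 genes without the filter, 1099 genes at the 60th percentile, 2 members with averaged probe sets, 2 members and 1797 genes with a variance trend, 637 genes with array weights and 526 genes without the group term. With an array left out it called 0 to 1 members and 0 to 540 genes. For number 3 against 1, 3 members were called at the 60th percentile (*PHF19*, *EZH2*, *EZH1*), 3 with a variance trend (*PHF19*, *EZH2*, *RBBP7*) and 2 with averaged probe sets (*PHF19*, *EZH2*), in place of 1, and 0 to 1 with an array left out. Calls over all genes in this contrast were not counted under these other settings, so the member counts have no share beside them. In the same contrast *RBBP4* was -0.020 with the _s_at and _x_at probe sets left out, and *PHF1* ranged from -0.13 to 0.22 with an array left out. Counts over all genes therefore depended on the filter and the variance prior. Leaving out an array left 1 array in its number, so fewer calls there cannot be told apart from lower precision. Among kept probe sets only, chosen after seeing the data, 0 of the member probe sets passed the F test, with an adjusted p of 0.063 for the brightest of *PHF19*.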
